A study of Mus musculus with 24 samples.

Results

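Translational efficiency, the share of an mRNA found on heavy polysomes relative to its total level, was compared between mouse embryonic fibroblasts with a single functional copy of Eif4e (Eif4e+/-) and wild-type (WT) fibroblasts, both untransformed. The fibroblasts were primary early-passage cells from E13.5 embryos, grown in 10% serum and harvested while dividing exponentially. The Eif4e+/- group held 3 cultures and the WT group held 3 cultures, each from its own embryo, and each culture had 1 total RNA array and 1 polysomal RNA array. These 12 arrays were part of a series of 24, whose other cultures carried the same genotypes and embryo numbers after transformation with Ras and Myc. How the Eif4e allele was disrupted, the mouse strain and whether the embryos were littermates are not known from the labels. Eif4e+/- embryo 1 and WT embryo 1 were different animals. The labels do not say whether cultures with the same number were handled together. Polysomal RNA came from cytoplasmic extracts of cycloheximide-treated cells (100 µg/ml), from which heavy polysomes were taken on a 10 to 50% sucrose gradient.

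The members were 7065 of 19661 uniquely named genes, of which 6879 were protein coding, 92 were long noncoding RNAs and 43 were microRNA loci. A gene was a member where its mean over the 6 untransformed polysomal arrays was above 4.0 on the authors' log2 scale, and each such gene also passed the filter on low values that left 14830 genes for testing. The rule used the polysomal values of both genotypes together, so a high value in either genotype could bring a gene in. The WT mean was at or below the limit in 229 members and the Eif4e+/- mean in 184, and differences of such genes are a description. Just inside the limit stood Shfl, with a mean polysomal value of 4.0003 and a difference of -0.34, and just outside it stood Naif1, with 3.9995 and a difference of 0.03. Translational efficiency (TE) was log2 polysomal minus log2 total value of the same culture, and a difference is Eif4e+/- minus WT on that log2 scale. The fractions had been scaled to different common levels, so TE has no absolute scale, and only differences between cultures or between genes can be read.

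eIF4E is the protein that binds the 5′ cap of mRNAs. Together with the scaffold eIF4G and the helicase eIF4A it forms the eIF4F complex, which brings the small ribosomal subunit to the mRNA, and the 4E-BP proteins block it by occupying the eIF4G-binding surface of eIF4E. Some mRNAs are described as depending more than others on the amount of eIF4E, among them mRNAs for growth and survival proteins, antioxidant enzymes and mRNAs that begin with a run of pyrimidines (TOP mRNAs), which encode ribosomal proteins and translation factors.

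Eif4e itself was lower in total RNA of the heterozygous cultures. On its brighter probe set on chromosome 3 the total RNA value was 8.69, 8.88 and 8.83 in the 3 Eif4e+/- cultures and 9.21, 9.05 and 9.03 in the 3 WT cultures. All 3 heterozygous cultures lay below all 3 WT cultures, by -0.30 on average, which put Eif4e at 81.3% of the WT level (exact two-sided permutation p = 0.1, the smallest that 3 against 3 can give). Its polysomal value was 3.67, 4.01 and 3.88 in Eif4e+/- cultures and 4.19, 3.92 and 4.09 in WT cultures, groups that overlapped (difference -0.22, exact permutation p = 0.2). Eif4e TE was -5.02, -4.87 and -4.95 in Eif4e+/- cultures and -5.02, -5.13 and -4.94 in WT cultures. That difference of 0.08 had a 95% interval of -0.40 to 0.57 in limma and did not pass (exact permutation p = 0.4). With a mean polysomal value of 3.96, Eif4e itself fell below the limit for a member. A second probe set of the gene gave -0.11 in total RNA (exact permutation p = 0.5). In polysomal RNA its groups stood apart, with a difference of -0.35 (exact permutation p = 0.1), and in TE the difference was -0.24 (exact permutation p = 0.6), so the probe sets differed in the sign of the TE difference.

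No member passed the test for a difference in TE between the genotypes. With limma, 0 of 7065 members passed at an adjusted p under 0.05 (0.0% of members, and 0.0% of the 14830 genes tested), and the smallest adjusted p was 0.9998. At an unadjusted p under 0.05, 91 members stood out (1.29%), 70 of them higher in Eif4e+/- cultures (0.991%) and 21 lower (0.297%). Over all genes tested these shares were 1.45%, 0.762% and 0.688%, and 5% would be expected when no gene differs. Among members the excess of higher values turned round without WT embryo 1 (34 higher and 94 lower), with each culture centred on its median (38 and 46) and with residuals from each culture's line of polysomal on total value (60 and 72). Without Eif4e+/- embryo 1 there was no excess (24 higher and 24 lower). Limma with array weights, and limma with trend and robust settings, also called 0 genes. The 3 Eif4e+/- and 3 WT values did not overlap in 241 members (3.41%), with the heterozygous cultures higher in 158 (2.24%) and lower in 83 (1.17%). Over all genes tested these shares were 5.58%, 2.89% and 2.69%. The spread between cultures set how small a difference could be seen: the median standard error of a difference was 0.26, and the 95% interval reached a median of 0.55 to either side.

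Although no single gene passed, the differences were not centred on 0. Their median over the members was 0.09, and 4736 of 7065 (67.0%) were above 0, compared with a median of 0.03 and 56.3% above 0 over all genes tested. Of the differences, 5% lay below -0.26 and 5% above 0.44. Differences above 0.5 were seen in 201 members and below -0.5 in 32, and the extremes were Atp1b3, a sodium pump subunit (1.04 ± 0.36, SE), and the mechanosensitive channel gene Piezo1 (-0.89 ± 0.61, SE), neither of which passed (adjusted p = 1, limma). The shift came with polysomal RNA: the median polysomal difference was 0.09 and the median total RNA difference 0.00. Across genes, which are not independent and where TE contains both values, the TE difference correlated with the polysomal difference at r = 0.88 and with the total RNA difference at r = -0.05.

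The positive shift was larger in mRNAs with more polysomal signal. When members were put into 5 equal bins of 1413 genes by polysomal level, the median TE difference was 0.02 in the lowest bin, 0.04, 0.08 and 0.14 in the next bins and 0.17 in the highest. The share of genes with a positive difference was 53.7% in the lowest bin and 82.2% in the highest. The order depended on WT embryo 1. Without WT embryo 1 the medians ran from -0.07 to 0.00 with no order over the 4 lower bins, and without WT embryo 3 they ran from 0.08 in the lowest bin to 0.31 in the highest. When TE was taken instead as the residual from each culture's own line of polysomal on total value, the medians were between -0.03 and 0.04.

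**Figure D1:**
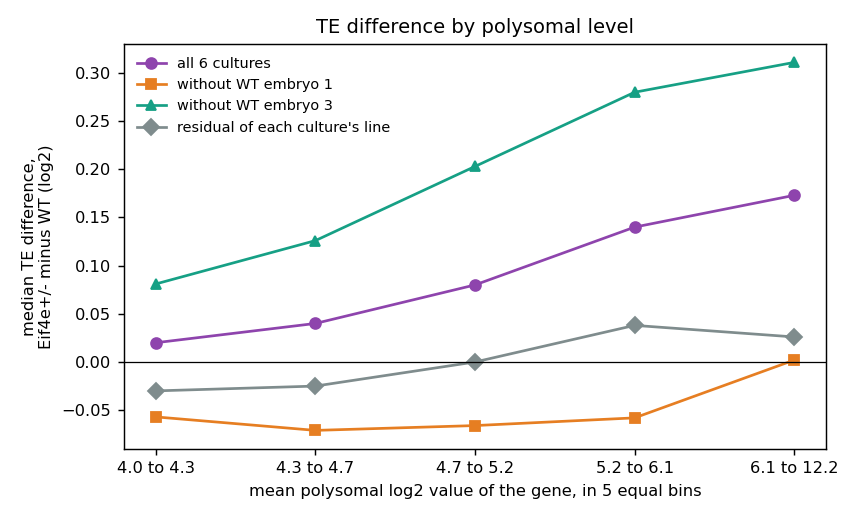
Median TE difference, Eif4e+/- minus WT (log2, vertical axis), in 5 bins of 1413 members ordered by mean polysomal log2 value (horizontal axis); the lines show all 6 cultures, the same without WT embryo 1 or without WT embryo 3, and residuals from each culture's own line. With all 6 cultures the median goes up across the bins to 0.17, without WT embryo 1 it stays between -0.07 and 0.00, and without WT embryo 3 it reaches 0.31.

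These values followed how the single cultures were spread. Median TE over the members was -3.83, -3.94 and -4.05 in the 3 Eif4e+/- cultures and -4.31, -3.97 and -3.81 in the 3 WT cultures, so the heterozygous cultures lay within the range of the WT cultures. The pooled SD of these medians within a genotype was 0.197, larger than the shift of 0.09. The SD of polysomal values over all probe sets was 1.41, 1.34 and 1.28 in the Eif4e+/- cultures and 1.15, 1.31 and 1.44 in the WT cultures. WT embryos 1 and 3 thus had the narrowest and the widest array. The polysomal value increased by 0.69, 0.69 and 0.70 per unit of total RNA in the Eif4e+/- cultures and by 0.54, 0.64 and 0.77 in the WT cultures. TE values correlated between Eif4e+/- cultures at 0.926, 0.921 and 0.908, against 0.876, 0.768 and 0.761 between WT cultures. For a single gene the median SD of TE over 3 cultures was 0.23 in Eif4e+/- and 0.41 in WT, and the WT SD was the larger in 5373 of 7065 members (76.1%). That gap lay in the polysomal arrays, with 0.24 in Eif4e+/- and 0.41 in WT, while in total RNA the median SD was 0.09 in both. When each culture's TE was centred on its own median, the median difference over the members was 0.00, and after quantile normalization within each fraction it was 0.05.

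**Figure D2:**
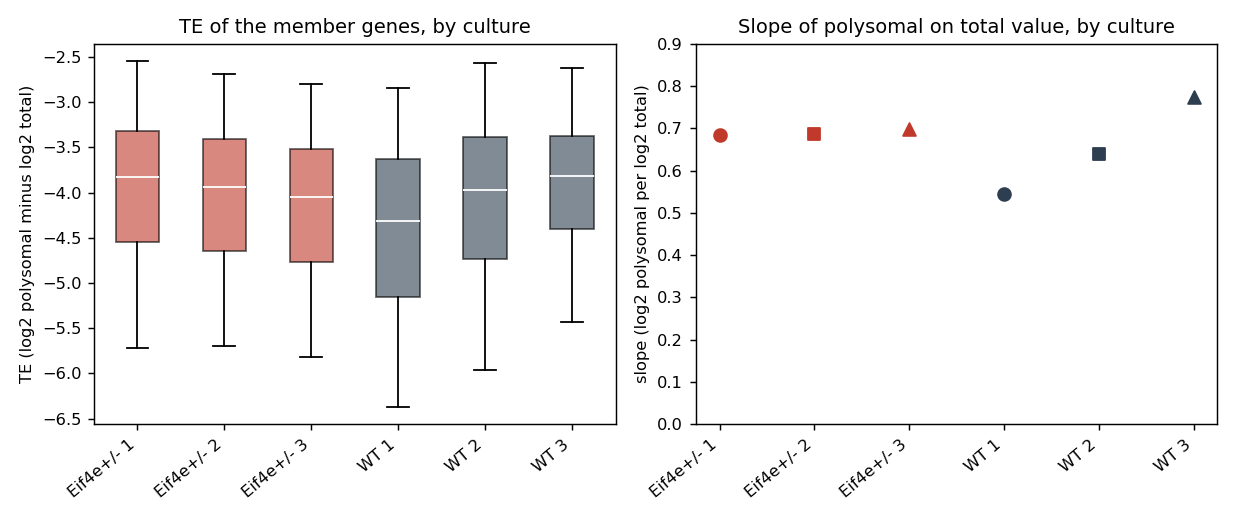
Left, TE (log2 polysomal minus log2 total) of the 7065 members in each untransformed culture, with boxes for the quartiles, a line for the median and whiskers for the 5th and 95th percentiles; right, slope of polysomal on total value in each culture. The 3 Eif4e+/- slopes lie between 0.69 and 0.70 and the 3 WT slopes between 0.54 and 0.77.

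Among genes higher in TE in the heterozygous cultures, the 10 of smallest p with groups apart were Laptm4b, Pigk, H2bc9, Pcolce, Psma5, Tysnd1, Itm2c, Asf1b, Ganab and H4c8, and none of them passed (adjusted p = 1, limma). Laptm4b, a lysosomal membrane protein, had TE values of -3.06, -2.89 and -3.29 in Eif4e+/- cultures, against -3.80, -3.72 and -3.74 in WT cultures. The groups were apart by more than the range within either, with a difference of 0.67 ± 0.17 (SE). The polysomal difference was 0.42 and the total RNA difference -0.25, a lower mean in total RNA beside a higher mean on polysomes. Pigk, the catalytic subunit of the transamidase that attaches GPI anchors, had TE values of -4.94, -5.04 and -4.97 in the heterozygous cultures and -6.02, -5.29 and -6.18 in the WT cultures, a difference of 0.85 ± 0.21 (SE). It was a member only through its Eif4e+/- values, with a mean polysomal value of 4.42 in Eif4e+/- and 3.68 in WT cultures, which is below the limit of 4.0, so its difference is a description only. Pcolce, which enhances removal of the C-propeptide of procollagen, had TE values of -3.48, -3.88 and -3.73 in the Eif4e+/- cultures and -4.36, -4.24 and -4.54 in the WT cultures. The difference of 0.68 ± 0.21 (SE) left the lowest heterozygous culture above the highest WT culture.

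Itm2c, an integral membrane protein, had TE values of -1.96, -1.98 and -2.24 in Eif4e+/- cultures, against -2.70, -2.40 and -2.74 in WT cultures, with a difference of 0.55 ± 0.18 (SE). Ganab, the catalytic subunit of glucosidase II that trims N-glycans in the endoplasmic reticulum, had TE values of -4.47, -4.68 and -4.96 in the heterozygous cultures and -5.59, -5.08 and -5.38 in the WT cultures, a difference of 0.65 ± 0.22 (SE). Tysnd1, a peroxisomal protease, had TE values of -3.73, -4.19 and -4.27 in the Eif4e+/- cultures and -4.90, -4.72 and -4.44 in the WT cultures, a difference of 0.62 ± 0.20 (SE). In these genes the WT culture nearest the heterozygous ones was embryo 2 for Itm2c and Ganab and embryo 3 for Tysnd1. Psma5, an alpha subunit of the 20S proteasome, had TE values of -2.95, -3.90 and -3.79 in Eif4e+/- cultures, against -4.87, -4.69 and -3.97 in WT cultures, and its difference of 0.97 ± 0.30 (SE) was the largest of the 10. Eif4e+/- embryo 1 alone was far above, and the other heterozygous values were close to WT embryo 3.

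The remaining 3 were a pair of histone genes and a histone chaperone. H2bc9, a replication-dependent histone H2B, had TE values of -0.85, -1.53 and -1.17 in the heterozygous cultures and -2.11, -1.96 and -1.84 in the WT cultures, a difference of 0.79 ± 0.20 (SE). The histone H4 gene H4c8 had TE values of -0.38, -0.84 and -0.87 in the Eif4e+/- cultures and -1.93, -1.35 and -1.05 in the WT cultures, a difference of 0.75 ± 0.26 (SE). Histone genes of a family are close in sequence, and probes may take up signal from related copies. Asf1b, a chaperone of histones H3 and H4, had TE values of -2.71, -2.97 and -3.16 in Eif4e+/- cultures, against -3.81, -3.75 and -3.48 in WT cultures, a difference of 0.73 ± 0.24 (SE), with a polysomal difference of 1.02 and a total RNA difference of 0.29. Over the members, polysomal values varied more within a genotype than total RNA values did. The median SD was 0.24 in Eif4e+/- and 0.41 in WT, against 0.09 in both for total RNA. Over the 10 genes, the polysomal part of the difference was the larger one in 10 of 10. Of them 2, Pigk and Psma5, lie on chromosome 3 as Eif4e does, where the 347 members had a median difference of 0.09, the same as over all members.

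The genes with the smallest p for lower TE in heterozygous cultures all had low polysomal values, and none passed (adjusted p = 1, limma). All 10 had a mean polysomal value below 5, as did 3740 members (52.9%), against 2 of the 10 genes with higher TE. Of the 10, Nrde2, Otp and Ccdc43 were members only through their WT values, with mean polysomal values of 3.79, 3.98 and 3.98 in Eif4e+/- cultures and 4.21, 4.61 and 4.43 in WT cultures, and their differences are a description only. Mcph1, microcephalin, a protein of chromosome condensation and the DNA damage response, had TE values of -4.49, -4.59 and -4.52 in the heterozygous cultures and -4.11, -3.85 and -4.09 in the WT cultures. Its difference of -0.52 ± 0.18 (SE) was made of a polysomal difference of -0.23 and a total RNA difference of 0.29, and it was the only one of the 10 in which the total RNA part was the larger. With total RNA as a covariate it was -0.32. Mrpl49, a protein of the mitochondrial ribosome, had TE values of -4.37, -4.52 and -4.93 in the Eif4e+/- cultures and -3.80, -4.08 and -4.12 in the WT cultures, a difference of -0.61 ± 0.25 (SE). Tamm41, which makes CDP-diacylglycerol for cardiolipin in mitochondria, had TE values of -4.78, -4.46 and -5.03 in Eif4e+/- cultures, against -4.40, -4.20 and -4.14 in WT cultures, a difference of -0.51 ± 0.21 (SE).

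Nrde2, a nuclear RNA-processing protein, had TE values of -3.76, -3.55 and -3.51 in the heterozygous cultures and -3.05, -3.11 and -3.21 in the WT cultures, a difference of -0.49 ± 0.17 (SE). Bmyc, a member of the Myc family, had TE values of -4.15, -3.96 and -3.84 in the Eif4e+/- cultures and -3.40, -3.50 and -3.64 in the WT cultures, a difference of -0.48 ± 0.21 (SE). In both genes the highest heterozygous culture lay below the lowest WT culture. Otp, a homeobox gene of the developing hypothalamus, had a total RNA value of only 7.58 on average and TE values of -3.52, -3.58 and -3.48 in Eif4e+/- cultures, against -2.97, -3.06 and -3.12 in WT cultures, a difference of -0.48 ± 0.17 (SE). The other genes were 9330020H09Rik (-0.50 ± 0.17, SE), Ccdc85c (-0.56 ± 0.19, SE), Btbd17 (-0.59 ± 0.21, SE) and Ccdc43 (-0.55 ± 0.22, SE). For Ccdc43 the gap rested largely on WT embryo 3, at -3.99, while WT embryo 1, at -4.73, came close to Eif4e+/- embryo 1, at -4.83.

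**Figure D3:**
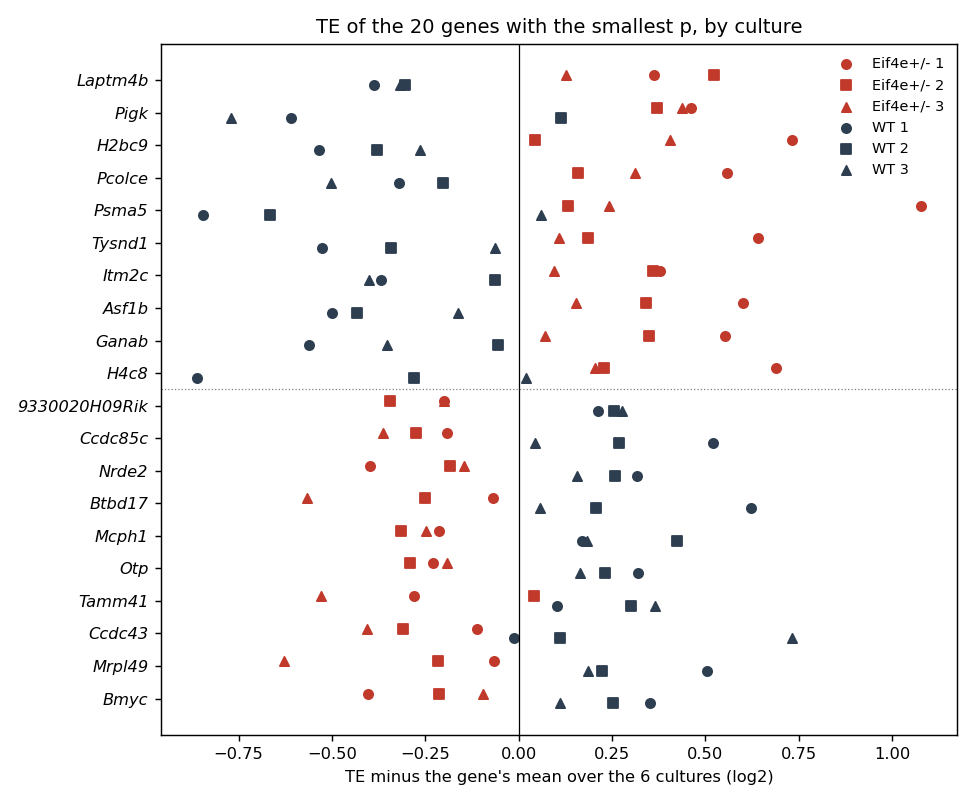
TE of the 10 named genes that were higher (top) and the 10 that were lower (bottom), by culture, in Eif4e+/- cultures (red) and WT cultures (dark). Each value is the log2 distance from the gene's mean over the 6 cultures. The marker shape gives the embryo number, which names different animals in the genotypes. In each gene the genotypes do not overlap, as the choice of these genes required, and the value farthest from its gene's mean is Psma5 in Eif4e+/- embryo 1, at a TE of -2.95.

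The rest of the cap-binding machinery showed differences of both signs, all within the spread between cultures. Of 26 eIF4F and eIF4E regulator genes listed, 17 were members, and 0 passed in limma (0 at an unadjusted p under 0.05). Their median difference was 0.16, beside 0.09 over all members, with 12 above 0 and 5 below. The translation repressor Eif4ebp1, a 4E-BP, had TE values of -4.29, -4.48 and -4.74 in the heterozygous cultures and -4.72, -3.68 and -4.49 in the WT cultures, a difference of -0.21 ± 0.25 (SE). The related Eif4ebp2 had a difference of -0.13 ± 0.22 (SE). Both negative values depended on WT embryo 2, without which they were 0.10 for Eif4ebp1 and 0.01 for Eif4ebp2.

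The scaffold homologue Eif4g2 had TE values of -3.58, -3.45 and -3.31 in the Eif4e+/- cultures and -4.35, -3.57 and -3.07 in the WT cultures, a difference of 0.22 ± 0.27 (SE) that was -0.13 without WT embryo 1. The scaffold Eif4g3 had a difference of 0.17 ± 0.24 (SE), and the helicase Eif4a2 one of 0.16 ± 0.31 (SE), which was -0.13 without Eif4e+/- embryo 1. Poly(A)-binding protein Pabpc1, which binds eIF4G and closes the mRNA into a loop, had TE values of -4.35, -3.92 and -3.94 in Eif4e+/- cultures, against -4.52, -4.64 and -3.89 in WT cultures, a difference of 0.28 ± 0.25 (SE). Eif4h, a cofactor of the helicase, had a difference of 0.31 ± 0.29 (SE), and Paip2b, an inhibitor of poly(A)-binding protein, one of -0.35 ± 0.27 (SE). With total RNA as a covariate, the sign turned for Paip2b (0.13) and for Eif4g3 (-0.08). In each of these genes the Eif4e+/- and WT ranges overlapped. Eif4g1 and Eif4a1 were not analysed here. The median of the list was -0.04 without WT embryo 1 and 0.44 without WT embryo 3.

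Among the other initiation, elongation and termination factors, 35 of 39 listed genes were members, 28 had a difference above 0 and 7 below, the median was 0.15, and 0 passed in limma (1 higher and 0 lower at an unadjusted p under 0.05). Eif3h, a subunit of the initiation factor eIF3, had TE values of -3.60, -3.69 and -3.98 in the heterozygous cultures and -4.49, -4.83 and -3.78 in the WT cultures, a difference of 0.61 ± 0.25 (SE) that was 0.05 with total RNA as a covariate. Eif3e, another eIF3 subunit, had TE values of -3.42, -2.86 and -3.48 in the Eif4e+/- cultures and -4.79, -4.41 and -2.43 in the WT cultures, a difference of 0.62 ± 0.56 (SE). In both, WT embryos 1 and 2 were the lowest cultures, while WT embryo 3 lay within the heterozygous range for Eif3h and above it for Eif3e. Eif5a, which helps ribosomes through difficult peptide bonds, differed by -0.02 ± 0.28 (SE). The list's median was -0.03 without WT embryo 1 and 0.51 without WT embryo 3.

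TOP mRNAs begin at the cap with a C followed by a run of pyrimidines. Of 80 cytosolic ribosomal proteins listed, 22 were measured under a unique symbol and 21 of these were members, and their median difference was the same as over all members, 0.09, with 13 above 0, 8 below and 0 called (limma, 0 at an unadjusted p under 0.05). Relative to each culture's own line of polysomal on total value it was -0.11. Of the other TOP mRNAs, 19 of 25 were members with a median of 0.29, 17 above 0 and 2 below, and 0 were called (limma, 1 higher and 0 lower at an unadjusted p under 0.05). This median lay between 0.15 and 0.51 when any culture was left out. Eef2, the translocating elongation factor, had TE values of -3.10, -3.13 and -3.34 in Eif4e+/- cultures, against -3.64, -3.80 and -3.21 in WT cultures, a difference of 0.36 ± 0.23 (SE). Vim, which encodes vimentin, had TE values of -2.61, -2.25 and -2.67 in the heterozygous cultures and -2.90, -3.22 and -2.25 in the WT cultures, a difference of 0.28 ± 0.25 (SE). In both, WT embryo 2 was the lowest culture.

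Start sequences show which of these members carry a pyrimidine run at the annotated start. In RefSeq (GRCm38.p6), 5704 members had a promoter entry. The motif searched was a C at the first transcribed base followed by 4 or more bases that are each C or T, on the gene's strand. It was found in 173 members (3.03%), against 823 of 32851 promoters in the table (2.51%), and in 8 of 30 TOP and ribosomal protein members with an entry (26.7%). The median TE difference was 0.08 in members with the motif and 0.09 in those without it, and 0.06 against 0.17 within the 30. Most of the 30 lacked the motif at the annotated start, so listed TOP mRNAs also stood among the genes without it. Whether the annotated start is the one used in these cultures was not tested. Below are the 30 bases around the start of the 8, 15 before it and 15 from it on, with the pyrimidine run in capitals:
Nap1l1 (chr10:111473212-111473241, + strand): ggcgggctctcgggtCTTTTTTagcgccat
Eif3f (chr7:108934400-108934429, + strand): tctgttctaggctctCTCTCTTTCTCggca
Gas5 (chr1:161035151-161035180, + strand): agccgccatctcagcCTTTCggagctgtgc
Rps15a (chr7:118116133-118116162, - strand): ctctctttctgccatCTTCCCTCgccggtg
Rps21 (chr2:180257364-180257393, + strand): taccgaggacccgccCTCCTgcccaatagt
Fau (chr19:6057932-6057961, + strand): tgcgcgcccccacttCTTCCTCTTTCTTga
Rpl14 (chr9:120571502-120571531, + strand): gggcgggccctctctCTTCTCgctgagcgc
Rplp2 (chr7:141447636-141447665, + strand): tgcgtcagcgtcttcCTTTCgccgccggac

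The 8 genes had differences of both signs, and none passed (adjusted p = 1, limma). The longest run was in Fau, 13 bases long, whose TE was -3.73, -3.80 and -3.84 in the Eif4e+/- cultures and -3.91, -3.59 and -3.98 in the WT cultures, a difference of 0.04 ± 0.23 (SE). The next, Eif3f with 11 bases, had TE values of -3.34, -3.32 and -3.66 in Eif4e+/- cultures, against -4.23, -3.52 and -3.43 in WT cultures, a difference of 0.29 ± 0.29 (SE). Rpl14, a ribosomal protein of the large subunit with a run of 6, had TE values of -3.87, -4.33 and -3.10 in the heterozygous cultures and -4.37, -4.46 and -4.04 in the WT cultures, a difference of 0.52 ± 0.29 (SE). In all 3 of these genes the heterozygous and WT values overlapped. Differences below 0 were seen for the histone chaperone gene Nap1l1 (-0.48 ± 0.39, SE, run of 7), for Rps15a (-0.25 ± 0.23, SE, run of 8) and for Rplp2 (-0.22 ± 0.35, SE, run of 5). Gas5, a noncoding host of small nucleolar RNAs, differed by 0.09 ± 0.22 (SE), and Rps21 by 0.18 ± 0.56 (SE). Rps21 had the least certain value, because WT embryo 1 was at -6.15 and WT embryo 2 at -3.12. Members grouped by GC content of the first 50 transcribed bases had median differences of 0.09, 0.10, 0.09 and 0.07 in order of increasing GC.

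mRNAs reported elsewhere as sensitive to eIF4E had a median difference close to that of all members. Of 35 listed, 28 were members, 21 had a difference above 0 and 7 below, the median was 0.13, beside 0.09 over all members, and 0 passed in limma (0 at an unadjusted p under 0.05). Myc, the growth-promoting transcription factor, had TE values of -2.90, -3.45 and -3.18 in the Eif4e+/- cultures and -3.56, -3.92 and -2.85 in the WT cultures, a difference of 0.27 ± 0.28 (SE). Hmga2, a chromatin protein of embryonic and tumour cells, had TE values of -2.71, -2.52 and -2.80 in Eif4e+/- cultures, against -2.87, -3.05 and -2.57 in WT cultures, a difference of 0.15 ± 0.24 (SE). Srm, which makes spermidine, differed by 0.06 ± 0.30 (SE). In all of these genes the heterozygous cultures lay inside the range of the WT cultures or overlapped it. Rrm2, the small subunit of ribonucleotide reductase, gave the smallest p of the list, with TE values of -4.71, -4.41 and -4.79 in the heterozygous cultures and -5.71, -5.72 and -4.54 in the WT cultures. Its difference was 0.69 ± 0.32 (SE), and WT embryo 3 again lay among the heterozygous values.

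Redox, glutathione and iron genes also stayed near the level of all members. Of 62 listed, 48 were members, 32 had a difference above 0 and 16 below, the median was 0.11, and 0 passed in limma (0 at an unadjusted p under 0.05). Sod1, cytosolic superoxide dismutase, had TE values of -2.01, -2.61 and -2.37 in the Eif4e+/- cultures and -3.10, -2.04 and -2.39 in the WT cultures, a difference of 0.18 ± 0.26 (SE). Prdx2, a peroxiredoxin, differed by 0.10 ± 0.23 (SE), and Gpx8, a peroxidase of the endoplasmic reticulum, by 0.19 ± 0.26 (SE). Glrx5, a mitochondrial glutaredoxin needed for iron-sulfur clusters, had TE values of -4.26, -4.46 and -4.39 in Eif4e+/- cultures, against -4.15, -3.26 and -4.13 in WT cultures. Every heterozygous culture lay below every WT culture, by -0.53 on average, but WT embryo 2 stood far above the other WT cultures and the difference did not pass (adjusted p = 1, limma).

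Mitochondrial genes had the smallest differences of the larger lists. Of 76 nuclear-encoded oxidative phosphorylation subunits, 62 were members with a median of 0.04, 37 above 0 and 25 below, and 0 passed in limma (1 higher and 0 lower at an unadjusted p under 0.05). Cox6b1, a subunit of cytochrome oxidase, had TE values of -1.81, -1.98 and -2.16 in the heterozygous cultures and -1.99, -1.55 and -2.11 in the WT cultures, a difference of -0.10 ± 0.20 (SE). Sdhd, a membrane anchor of succinate dehydrogenase, had TE values of -3.30, -3.06 and -3.47 in the Eif4e+/- cultures and -3.74, -4.20 and -3.45 in the WT cultures, a difference of 0.53 ± 0.23 (SE). Once each culture's median over all members was taken off, median TE of the list was 0.52, 0.23 and 0.61 in Eif4e+/- cultures and 0.26, 1.05 and 0.40 in WT cultures, so WT embryo 2 stood above all others. The list's median difference was -0.21 without WT embryo 1 and 0.26 without WT embryo 2. Of 77 mitochondrial ribosomal proteins, 67 were members with a median of 0.05, 37 above 0 and 30 below, and 0 passed (limma, 0 higher and 1 lower at an unadjusted p under 0.05).

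Cholesterol and fatty acid synthesis genes mostly had differences above 0, though none passed. Of 37 listed, 26 were members, 25 of them with a difference above 0, and the median was 0.23, beside 0.09 over all members (0 called in limma, 2 higher and 0 lower at an unadjusted p under 0.05). The groups did not overlap, with the heterozygous cultures higher, in 4 of 26, against 2.24% of all members and 2.89% of all genes tested. Such groups were also seen in 3 of 38 endoplasmic reticulum chaperone genes and 3 of 45 matrix genes. In these lists 0 genes had groups apart with the heterozygous cultures lower. Sqle, squalene epoxidase, had TE values of -5.11, -5.07 and -5.23 in Eif4e+/- cultures, against -5.81, -5.71 and -5.58 in WT cultures, a difference of 0.57 ± 0.22 (SE). Fdft1, squalene synthase, had TE values of -3.09, -3.54 and -3.31 in the heterozygous cultures and -3.54, -3.56 and -3.45 in the WT cultures, a difference of 0.21 ± 0.27 (SE). In Sqle and Fdft1 the WT cultures were close together. Msmo1, a sterol demethylase, differed by 0.07 ± 0.26 (SE), and Fads2, a fatty acid desaturase, by 0.22 ± 0.24 (SE). With each culture's median taken off, the list stood at 0.06, 0.07 and 0.03 in Eif4e+/- cultures and at 0.04, -0.12 and -0.25 in WT cultures, and the list's median difference lay between 0.14 and 0.35 when any culture was left out.

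Secreted and secretory pathway genes showed higher TE values in heterozygous cultures on average, which rested in large part on WT embryo 3. Of 42 endoplasmic reticulum chaperone and folding genes, 38 were members with a median of 0.29, 36 above 0 and 2 below, and 0 passed in limma (2 higher and 0 lower at an unadjusted p under 0.05). Pdia6, a protein disulfide isomerase, had TE values of -3.29, -3.45 and -3.14 in the Eif4e+/- cultures and -3.95, -3.39 and -4.48 in the WT cultures, a difference of 0.65 ± 0.26 (SE). Canx, the lectin chaperone calnexin, had TE values of -3.34, -3.26 and -2.85 in Eif4e+/- cultures, against -3.61, -2.80 and -3.92 in WT cultures, a difference of 0.29 ± 0.35 (SE). Both were lowest in WT embryo 3. Calr, calreticulin, differed by 0.16 ± 0.31 (SE), and Hsp90b1, the HSP90 of the endoplasmic reticulum, by 0.25 ± 0.39 (SE). With each culture's median taken off, the list stood at 0.22, 0.18 and 0.36 in Eif4e+/- cultures and at 0.15, 0.28 and -0.64 in WT cultures. Its median difference was 0.14 without WT embryo 3, and -0.14 without both WT embryos 1 and 3.

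Of 58 collagen and extracellular matrix genes, 45 were members with a median of 0.20, 38 above 0 and 7 below, and 0 passed in limma (1 higher and 0 lower at an unadjusted p under 0.05). Sparc, a matrix protein that binds collagen, had TE values of -2.33, -2.65 and -2.25 in the heterozygous cultures and -2.73, -2.49 and -2.97 in the WT cultures, a difference of 0.32 ± 0.21 (SE). Thbs1, thrombospondin 1, had TE values of -3.63, -3.70 and -3.44 in the Eif4e+/- cultures and -3.35, -3.43 and -4.76 in the WT cultures, a difference of 0.26 ± 0.37 (SE). Bgn, the proteoglycan biglycan, had TE values of -2.96, -3.31 and -2.88 in Eif4e+/- cultures, against -2.58, -2.86 and -4.16 in WT cultures, a difference of 0.15 ± 0.36 (SE). In all of them WT embryo 3 was the lowest culture, and in Bgn both other WT cultures were above all heterozygous cultures. The median difference of the list was -0.06 without WT embryo 3 and 0.37 without WT embryo 1. With each culture's median taken off, it stood at -0.34, -0.38 and -0.01 in Eif4e+/- cultures and at -0.02, -0.15 and -1.09 in WT cultures. In such bulk cultures fewer cells of a type and less RNA per cell cannot be told apart.

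**Figure D4:**
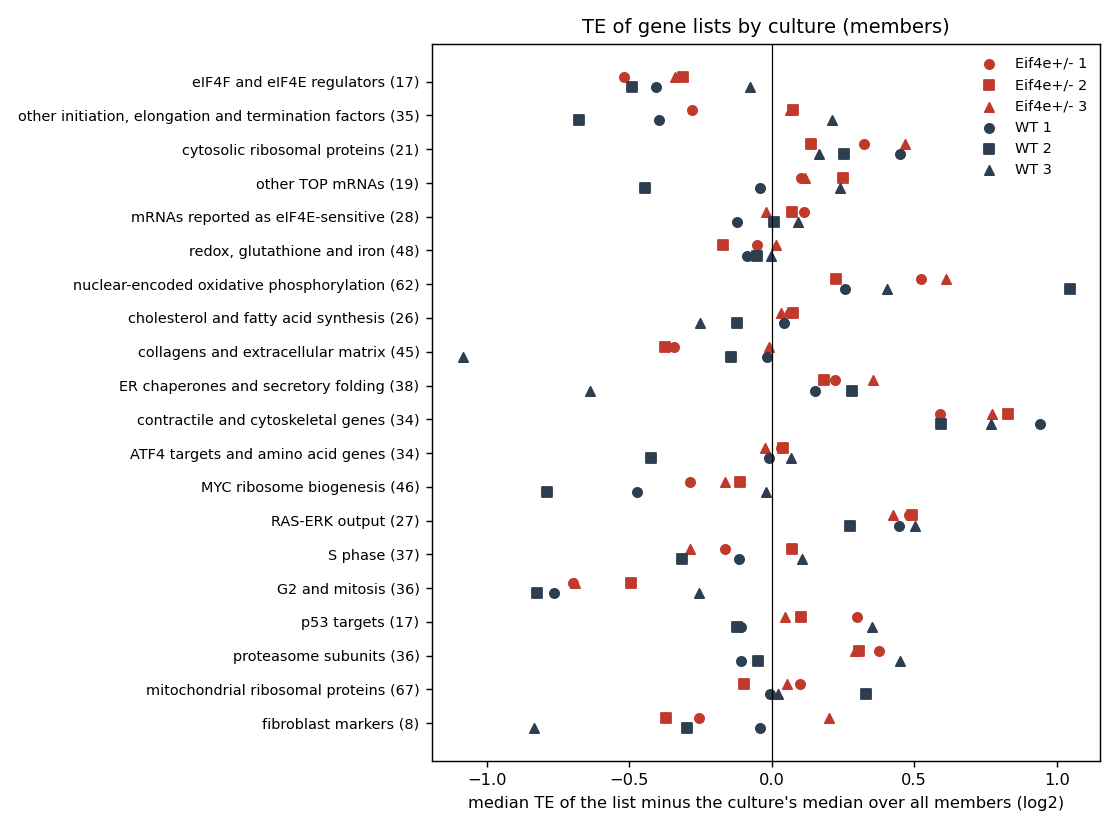
Median TE of each gene list in each culture, after taking off the culture's median over all members (log2, horizontal axis), for Eif4e+/- cultures (red, upper mark of each row) and WT cultures (dark, lower mark), with marker shape for embryo number and the number of members in brackets; histones, at 2.07 to 2.99, are off the scale and not drawn. WT embryo 3 is the lowest culture for extracellular matrix (-1.09) and endoplasmic reticulum chaperones (-0.64), and WT embryo 2 is the highest for oxidative phosphorylation (1.05) and the lowest for ribosome biogenesis (-0.79).

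Genes listed for MYC-driven ribosome biogenesis varied more among the WT cultures than among the heterozygous ones. The list also held genes of other functions, among them Ldha and Srm. Of its 50 genes, 46 were members with a median of 0.16, 37 above 0 and 9 below, and 0 passed in limma (1 higher and 0 lower at an unadjusted p under 0.05). Nop56, a core protein of box C/D ribonucleoproteins, had TE values of -4.56, -4.59 and -4.71 in the heterozygous cultures and -5.80, -5.60 and -4.52 in the WT cultures, a difference of 0.68 ± 0.31 (SE). Npm1, nucleophosmin, differed by 0.16 ± 0.31 (SE), and Ldha, lactate dehydrogenase, by 0.20 ± 0.21 (SE). The list stood at -0.29, -0.11 and -0.16 in Eif4e+/- cultures and at -0.47, -0.79 and -0.02 in WT cultures relative to each culture's median, and its median difference was -0.01 without WT embryo 1 and 0.45 without WT embryo 3. Of 44 ATF4 target and amino acid genes, 34 were members with a median of 0.18, 28 above 0 and 6 below (0 called in limma, 1 higher and 0 lower at an unadjusted p under 0.05). Sars, the seryl-tRNA synthetase, had TE values of -3.18, -3.39 and -3.42 in the Eif4e+/- cultures and -4.13, -4.12 and -3.29 in the WT cultures, a difference of 0.52 ± 0.23 (SE). Asns, asparagine synthetase, differed by 0.30 ± 0.28 (SE), and the amino acid transporter Slc7a5 by 0.18 ± 0.21 (SE).

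Of 36 genes of RAS-ERK output, 27 were members with a median of 0.15, 20 above 0 and 7 below, and 0 passed in limma (1 higher and 0 lower at an unadjusted p under 0.05). Hbegf, a ligand of the EGF receptor, had TE values of -3.27, -3.85 and -3.63 in Eif4e+/- cultures, against -4.55, -4.27 and -4.05 in WT cultures, a difference of 0.71 ± 0.29 (SE), with the groups apart. Of 41 proteasome subunits, 36 were members with a median of 0.23, 31 above 0 and 5 below (0 called in limma, 1 higher and 0 lower at an unadjusted p under 0.05). Without WT embryo 1 the proteasome median was -0.01. Psma6, an alpha subunit of the 20S core, had TE values of -2.95, -2.97 and -3.16 in the heterozygous cultures and -3.72, -3.57 and -2.49 in the WT cultures, a difference of 0.24 ± 0.27 (SE). Psmb7, a catalytic beta subunit, differed by 0.12 ± 0.21 (SE). Of 42 contractile and cytoskeletal genes, 34 were members with a median of 0.18, 29 above 0 and 5 below (0 called in limma, 0 at an unadjusted p under 0.05). Actb, beta-actin, had TE values of -1.26, -1.38 and -1.63 in the Eif4e+/- cultures and -1.81, -1.82 and -1.27 in the WT cultures, a difference of 0.21 ± 0.22 (SE), and smooth muscle actin Acta2 differed by 0.19 ± 0.20 (SE). Of 30 p53 targets, 17 were members with a median of 0.08, 12 above 0 and 5 below (0 called in limma, 0 at an unadjusted p under 0.05). Leaving out WT embryo 1 also put below 0 the median differences of cytosolic ribosomal proteins (-0.05), mRNAs reported as eIF4E-sensitive (-0.02), redox genes (-0.04), mitochondrial ribosomal proteins (-0.19), S phase genes (-0.01), G2 and mitosis genes (-0.08) and p53 targets (-0.06). Leaving out Eif4e+/- embryo 1 did so for cytosolic ribosomal proteins (-0.01), oxidative phosphorylation subunits (-0.03), mitochondrial ribosomal proteins (-0.06) and p53 targets (-0.03).

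Proliferation genes had higher mean values in both fractions. The fractions were compared gene by gene through TE, and the lists as sets were not tested. S phase genes had higher values in heterozygous cultures in both fractions, with a median total RNA difference of 0.25 and a median polysomal difference of 0.33, and the median TE difference was 0.11 over 37 members of 45 listed. G2 and mitosis genes had a median total RNA difference of 0.33 and a median polysomal difference of 0.40, with a median TE difference of 0.10 over 36 members of 50 listed. In both lists 26 TE differences were above 0, with 11 below in S phase and 10 in G2 and mitosis, and 0 passed in limma (0 at an unadjusted p under 0.05). Total RNA itself gave 0 called members (0.0%), with 119 (1.68%) at an unadjusted p under 0.05, and polysomal RNA gave 0 called (0.0%), with 125 (1.77%). In a check chosen after seeing the data, without WT embryo 2 the median total RNA difference was 0.14 in S phase and 0.22 in G2 and mitosis genes, and without WT embryo 1 it was 0.40 and 0.47. At an unadjusted p under 0.05, total RNA gave 84 higher and 35 lower members, but 19 and 26 without WT embryo 2 and 201 and 20 without WT embryo 1, and polysomal RNA gave 94 and 31, but 1252 and 122 without WT embryo 3 and 46 and 119 without WT embryo 1. Mcm6, a subunit of the replicative helicase, had a total RNA difference of 0.30 and TE values of -3.92, -3.50 and -3.94 in Eif4e+/- cultures, against -4.63, -4.41 and -3.09 in WT cultures, a TE difference of 0.25 ± 0.38 (SE). Plk1, a mitotic kinase, had a total RNA difference of 0.34 and a TE difference of 0.31 ± 0.23 (SE). Ncapd2, a condensin subunit, had a total RNA difference of 0.41 and TE values of -4.20, -4.14 and -4.38 in the heterozygous cultures and -4.98, -4.90 and -4.29 in the WT cultures, a TE difference of 0.48 ± 0.23 (SE). WT embryo 3 lay among the heterozygous cultures for Ncapd2 and above them for Mcm6.

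Replication-dependent histone genes, whose mRNAs end in a stem-loop in place of a poly(A) tail, had the highest TE of the lists in every culture. Of 58 listed, 23 were members with a median difference of 0.19, 19 above 0 and 4 below, and 0 passed in limma (2 higher and 0 lower at an unadjusted p under 0.05). The groups did not overlap, with the heterozygous cultures higher, in 4 of 23, against 2.24% of all members and 2.89% of all genes tested. H4c4, a histone H4 gene, had TE values of 0.73, 0.19 and 0.10 in the Eif4e+/- cultures and 0.29, 0.46 and 0.04 in the WT cultures, a difference of 0.08 ± 0.23 (SE). H2bc14, a histone H2B gene, had TE values of -0.38, -0.82 and -1.10 in Eif4e+/- cultures, against -0.64, -1.55 and -1.74 in WT cultures, a difference of 0.55 ± 0.28 (SE). H4c14 differed by 0.11 ± 0.17 (SE). Relative to each culture's median the list stood at 2.99, 2.41 and 2.88 in Eif4e+/- cultures and at 2.79, 2.42 and 2.07 in WT cultures, with WT embryo 3 lowest.

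**Figure D5:**
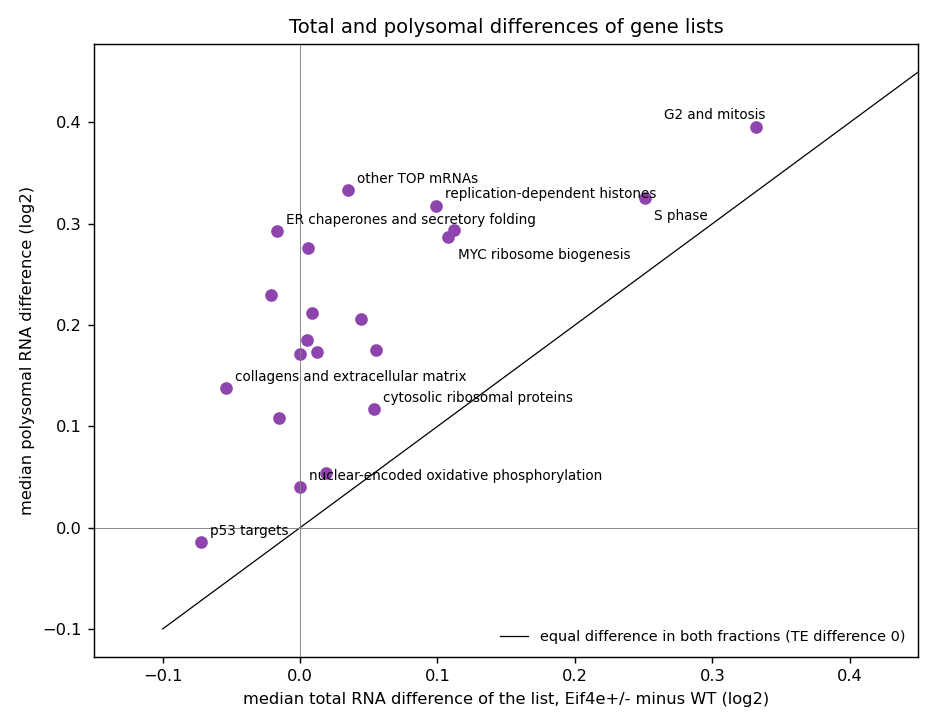
Median polysomal RNA difference (vertical axis) against median total RNA difference (horizontal axis), Eif4e+/- minus WT in log2, for the gene lists with at least 5 members; the diagonal marks an equal difference in both fractions. S phase (0.25 and 0.33) and G2 and mitosis (0.33 and 0.40) lie furthest to the right and near the diagonal, while endoplasmic reticulum chaperones (-0.02 and 0.29) and the other TOP mRNAs (0.03 and 0.33) lie well above it.

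The cultures carried markers of fibroblasts. Mean total RNA value of 11 fibroblast markers was 9.84, 9.77 and 10.06 in Eif4e+/- cultures and 9.70, 10.10 and 9.94 in WT cultures. Of these 11 markers 1 had a mean total RNA value below 6, as did 1 of 4 muscle and 1 of 3 adipocyte markers. Means of the marker lists for macrophages, endothelium, neural cells, epithelium, muscle, cartilage, adipocytes and red blood cells were between 6.59 and 8.46 in every culture, though levels of different probe sets are not strictly comparable. The red blood cell list rested on 1 measured gene of 4 listed. Within the neural list, Tubb3 (10.31) and Stmn2 (9.79) had total RNA means as high as the fibroblast list; they were its 2 members, and their part in the results was not tested. Of the fibroblast markers 8 were members, and all 8 TE differences were above 0, with a median of 0.33 and 0 called (limma, 0 at an unadjusted p under 0.05). Col1a1, a chain of type I collagen, had TE values of -4.00, -3.99 and -3.65 in the heterozygous cultures and -4.41, -4.08 and -4.57 in the WT cultures, a difference of 0.48 ± 0.26 (SE). Thy1, a surface glycoprotein, had TE values of -1.52, -1.67 and -1.51 in the Eif4e+/- cultures and -2.05, -1.29 and -2.51 in the WT cultures, a difference of 0.39 ± 0.31 (SE). Both were lowest in WT embryo 3. The median of these markers was 0.18 without that culture. Of the other marker lists, 2 macrophage, 2 neural, 2 epithelial, 2 muscle and 2 cartilage genes and no endothelial, adipocyte or red blood cell gene were members.

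The same genes were also measured in Ras and Myc transformed cultures. Over the 7065 members the median TE difference was 0.09 in untransformed and -0.02 in transformed cultures, and the difference of these medians was not tested. In transformed cultures limma called 0 members (0.0%), with 143 (2.02%) at an unadjusted p under 0.05, 71 higher (1.0%) and 72 lower (1.02%). The medians of the 5 polysomal bins there lay between -0.03 and 0.00. Of the 10 genes named for higher TE in untransformed cultures, 6 were also above 0 in transformed cultures (-0.29 to 0.52), and of the 10 for lower TE 5 were also below 0 (-0.26 to 0.20). The transformed minus untransformed genotype difference, tested with embryo as a block, was called in 0 members (0.0%), with 142 (2.01%) at an unadjusted p under 0.05. Laptm4b had the smallest p of the 20 genes for this difference between states, -0.96 (unadjusted p = 0.00495, adjusted p = 1, limma). The 20 genes were chosen by their untransformed TE values, which enter this difference, so that p is a description only. Other TOP mRNAs had a median difference of 0.29 in untransformed and -0.06 in transformed cultures. Fibroblast markers had 0.33 in untransformed and -0.29 in transformed cultures, and cholesterol and fatty acid genes 0.23 in untransformed and -0.09 in transformed cultures. Histones, at 0.19 in untransformed and 0.13 in transformed cultures, were above 0 in both states. So were mitochondrial ribosomal proteins (0.05 and 0.12), cytosolic ribosomal proteins (0.09 and 0.09) and oxidative phosphorylation subunits (0.04 and 0.05). In the same order, the untransformed medians of these ribosomal and oxidative phosphorylation lists fell below 0 in other settings. They were -0.037, -0.004 and -0.049 with each culture centred on its median, and -0.022, -0.028 and -0.008 after quantile normalization within each fraction. Endoplasmic reticulum chaperones were also above 0 in both states, at 0.29 in untransformed and 0.01 in transformed cultures.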

How the data were processed

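The authors deposited log2 RMA intensities of Affymetrix Mouse Gene 1.0 ST arrays, per the submitters' processing notes. The RMA version and the chip definition are not given in the sources used here. Of 25668 probe sets, 20777 carried 1 gene symbol in the platform annotation, 232 carried several and 4659 none. The symbols covered 19661 genes, and the brightest probe set stood for each of 564 genes with several. A filter kept 14830 genes that exceeded the 40th percentile of an array on 3 or more arrays.

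TE was the log2 polysomal value less the log2 total value of each culture. Genotype differences came from limma 3.58.1 in R 4.3.3 (lmFit and eBayes), with 4 group means over 12 cultures and 8 residual degrees of freedom, and Benjamini-Hochberg adjustment over the 14830 genes. That fit took the cultures of both states as independent, though they share embryo numbers, and its SEs pool the spread of both states. With the untransformed cultures alone, limma called 0 members, with 58 higher and 19 lower at an unadjusted p under 0.05. The fit of the difference between states blocked on embryo, leaving 4 residual degrees of freedom. The main fit was also run on simulated data with independent genes and the same spread in both genotypes. In the cultures the WT spread was larger, so the simulation cannot show how the fit behaves on them. The number of arrays limits the precision.

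The members, the gene lists and the tests were chosen with earlier results of these data known. Named genes were, in each direction, called members whose groups did not overlap, filled up to 10 by the smallest unadjusted p among members whose groups did not overlap. To these were added the eIF4F genes and, for each list, the 3 members with the highest polysomal value and the one with the smallest p. Only a part of the list genes is printed. Genes of the start motif, and Atp1b3 and Piezo1, were added after their values were seen.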

Additional observations from a re-analysis of the deposited data

How the results depend on the processing

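The count of members called for TE was 0 in limma under all 20 alternatives run, and the smallest adjusted p in any of them was 0.153, without WT embryo 3. At an unadjusted p under 0.05, 70 members were higher and 21 lower in the analysis as reported. These numbers were 1022 and 55 without WT embryo 3, 34 and 94 without WT embryo 1, 179 and 19 without WT embryo 2, 259 and 86 with array weights, 38 and 46 with each culture centred on its median, and 60 and 72 with residuals from each culture's line. Without Eif4e+/- embryo 1 they were 24 and 24. Without WT embryos 1 and 3, a setting chosen after seeing the data, they were 408 and 266, with the lone WT culture assumed to vary like the other groups. The median difference over the members was 0.05 after quantile normalization, 0.15 and 0.17 at polysomal limits of 5.0 and 6.0, and between -0.05 and 0.19 when 1 culture was left out. The replicate block on embryo number called 0 members as well, with 55 higher and 14 lower at an unadjusted p under 0.05. Deviations from the genotype mean correlated at -0.036, -0.397 and -0.231 between same-numbered Eif4e+/- and WT cultures. In the other pairs they correlated at -0.111 to 0.344. As the deviations within a genotype sum to 0, these values cannot decide whether cultures of the same number were handled together. The TE difference of Eif4e turned negative with centring (-0.005), with residuals (-0.096) and with the mean of its probe sets (-0.078), and that of Eif4g3 was -0.081 with total RNA as a covariate, a setting under which Paip2b turned to 0.132. Total RNA and polysomal RNA also gave 0 called members under every alternative run, while their counts at an unadjusted p under 0.05 moved when cultures were left out: without Eif4e+/- embryo 1 they were 44 higher and 71 lower in total RNA and 24 and 49 in polysomal RNA, and without Eif4e+/- embryo 3 total RNA had 22 and 15. With 1 culture left out, the TE differences lay between -0.127 and 0.513 for Eif4g2, -0.132 and 0.52 for Eif4a2, -0.419 and 0.102 for Eif4ebp1, and -0.289 and 0.006 for Eif4ebp2. The cause was not tested.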
